A study of Mus musculus with 38 samples.

Results

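The naive-restricted peaks are 2551 regions of open chromatin in mouse CD8+ T cells, 1.51% of the 169323 peaks in the table that holds splenic naive cells and tumour OT-1 cells. They were measured by ATAC-seq, in which the Tn5 transposase cuts open DNA so that reads gather where chromatin is accessible. Values are normalized reads, the reads in a peak divided by a size factor for each library. A peak was a member if its mean over the young naive libraries was 50 or more and at least 3 times the mean over the young OT-1 Tprog libraries and at least 3 times the mean over the young OT-1 Tterm libraries. Of the 36604 peaks with a young naive mean of 50 or more, the members made up 6.97%. The members were thus chosen by the young naive, young Tprog and young Tterm values. Every comparison that holds one of those young groups, age comparisons of naive and OT-1 cells included, is therefore given below as a description. The comparisons that the choice did not use are those among aged groups and those of endogenous cells, although the young libraries shared the model of the aged ones and so its estimate of the spread.

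All mice carried the C57BL/6J background and the label wild type, the OT-1 cells included, and were 10 to 12 weeks old (young) or 64 to 68 weeks old (aged). Naive CD8+ cells came from spleen, with 2 young and 2 aged libraries. OT-1 cells, whose transgenic receptor recognises a peptide of ovalbumin, came from B16-OVA tumours, a melanoma line made to express that antigen. They were sorted as Tprog (Slamf6+ Tim-3-, progenitor exhausted; 2 young and 2 aged libraries) or Tterm (Slamf6- Tim-3+, terminally exhausted; 7 young and 6 aged libraries). A separate table of 73610 peaks held endogenous tumour CD8+ cells, with Tprog (4 young, 3 aged libraries), Tterm (5 young, 3 aged) and, from aged mice, a Slamf6- Tim-3- fraction labelled Tadys (2 libraries), which the design text calls TTAD. Tumours were taken on day 15, and sorted cells were pooled to 5000 to 50000 cells. The gate for naive cells and the hosts of the OT-1 cells are not given in the sources used here, and naive cells with many receptors are set against cells with a single transgenic one. Nothing says if libraries of a group came from separate mice, so that p-values speak only of the spread from library to library, which may be technical.

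Naive CD8+ T cells circulate between blood and lymphoid organs in a quiescent state. Foxo1, Klf2, Foxp1, Bach2, Satb1 and the HMG-box factors Tcf7 and Lef1 are known to keep that state, together with survival signals from interleukin 7 and homing receptors such as Ccr7 and S1pr1. Lasting antigen exposure in a tumour moves CD8+ T cells into exhaustion, where progenitor cells keep Tcf7 and can renew themselves, while terminal cells lose it and carry many inhibitory receptors. Accessible sites inside and between genes often act as enhancers, and naive-cell enhancers are known to close when T cells are activated.

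Few members lay at gene starts, but 65 of them wholly held the 250 bases before an annotated start, in 75 such windows belonging to 68 genes. The 8 windows below are from RefSeq (GRCm38.p6), printed 5′ to 3′ along the gene, and were chosen after their values were seen. In the first 4, accessibility in aged naive cells was at or near the young level, and in the last 4 it was far lower there. Capitals mark matches to 8 short motifs searched on both strands, of which these windows hold 2, TCF/LEF (CTTTGA) and KLF (CCNCNCCC), and neighbouring capitals can come from overlapping matches.
Satb1 chr17:51826589-51826838 (minus strand): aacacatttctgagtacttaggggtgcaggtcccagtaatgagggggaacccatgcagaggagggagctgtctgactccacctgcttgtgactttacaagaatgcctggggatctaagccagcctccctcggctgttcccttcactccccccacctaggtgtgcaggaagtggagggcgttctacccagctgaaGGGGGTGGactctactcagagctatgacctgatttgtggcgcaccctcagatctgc
Cnr2 chr4:135911430-135911679 (plus strand): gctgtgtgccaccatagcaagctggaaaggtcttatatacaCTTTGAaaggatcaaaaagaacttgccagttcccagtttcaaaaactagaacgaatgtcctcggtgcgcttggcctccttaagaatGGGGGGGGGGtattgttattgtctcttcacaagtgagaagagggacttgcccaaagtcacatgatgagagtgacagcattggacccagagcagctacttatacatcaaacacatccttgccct
P2rx7 chr5:122650133-122650382 (plus strand): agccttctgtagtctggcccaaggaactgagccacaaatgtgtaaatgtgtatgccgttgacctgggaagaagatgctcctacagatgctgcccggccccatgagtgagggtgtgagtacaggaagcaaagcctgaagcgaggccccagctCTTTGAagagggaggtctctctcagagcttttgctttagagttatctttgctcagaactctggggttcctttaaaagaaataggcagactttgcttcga
Rgs3 chr4:62619422-62619671 (plus strand): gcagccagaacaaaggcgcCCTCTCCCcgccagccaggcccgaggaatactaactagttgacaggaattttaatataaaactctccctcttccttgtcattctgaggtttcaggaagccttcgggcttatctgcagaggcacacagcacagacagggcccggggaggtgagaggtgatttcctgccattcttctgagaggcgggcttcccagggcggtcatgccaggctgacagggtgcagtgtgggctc
Dapk1 chr13:60601961-60602210 (plus strand): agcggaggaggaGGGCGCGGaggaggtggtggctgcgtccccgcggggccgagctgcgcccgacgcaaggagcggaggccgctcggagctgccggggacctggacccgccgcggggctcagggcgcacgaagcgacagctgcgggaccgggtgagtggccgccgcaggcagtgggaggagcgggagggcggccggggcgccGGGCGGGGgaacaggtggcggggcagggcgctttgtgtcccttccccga
Ccr9 chr9:123766961-123767210 (plus strand): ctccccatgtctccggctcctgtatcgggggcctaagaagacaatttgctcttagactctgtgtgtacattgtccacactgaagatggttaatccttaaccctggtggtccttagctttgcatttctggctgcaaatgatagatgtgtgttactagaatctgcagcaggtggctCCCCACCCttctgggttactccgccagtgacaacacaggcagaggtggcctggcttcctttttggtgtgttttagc
Syk chr13:52583187-52583436 (plus strand): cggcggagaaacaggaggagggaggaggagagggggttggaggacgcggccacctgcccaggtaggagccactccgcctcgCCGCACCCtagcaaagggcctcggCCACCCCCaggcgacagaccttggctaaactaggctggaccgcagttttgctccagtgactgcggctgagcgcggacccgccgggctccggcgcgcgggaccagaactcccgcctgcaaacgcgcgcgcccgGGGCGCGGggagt
Pak1 chr7:97842689-97842938 (plus strand): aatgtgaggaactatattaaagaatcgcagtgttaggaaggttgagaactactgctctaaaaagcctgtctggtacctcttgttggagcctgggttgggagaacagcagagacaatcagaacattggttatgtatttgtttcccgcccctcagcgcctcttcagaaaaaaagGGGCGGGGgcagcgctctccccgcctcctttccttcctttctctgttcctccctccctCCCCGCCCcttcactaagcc
Satb1 encodes a chromatin organiser of T cells, Cnr2 a cannabinoid receptor of immune cells, P2rx7 an ATP-gated channel and Rgs3 a brake on G protein signalling. Dapk1 encodes a death-associated kinase, Ccr9 the chemokine receptor for homing to the gut, Syk a kinase of antigen receptor signalling in B cells and early T cells, and Pak1 a kinase of the cytoskeleton. The TCF/LEF letters stood in 22.7% of the 75 windows in members and in 13.8% of all 32851 windows of that length. For KLF the shares were 46.7% and 45.9%, for NFAT (TGGAAAA) 6.67% and 5.93%, for FOXO (TGTTTAC) 4.00% and 3.17%, for RUNX (TGTGGTT) 4.00% and 4.40% and for AP-1 (TGANTCA) 5.33% and 6.75%. The ETS letters (CCGGAAG) were in 1.33% of the member windows against 6.91% of all, and the T-box letters (AGGTGTGA) in 1.33% and 1.12%. These are counts of letters and say nothing of binding.

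Depth was 6.80 to 27.7 megareads in peaks per library in the naive and OT-1 table and 4.64 to 87.6 megareads in the endogenous table. All 4 naive libraries were sequenced in batch 3 and no OT-1 library was, so naive identity and that batch cannot be told apart in any comparison with OT-1 cells. The OT-1 libraries came from batches 4 and 5, which share an entry, and from batch 6 (both aged Tprog, aged Tterm library 6, young Tterm libraries 6 and 7), while all endogenous libraries were labelled batches 1 and 2. Aged OT-1 Tprog library 1, the shallowest of its table, stood apart: 160 members were at 0 in it, against 16 in aged OT-1 Tprog library 2. The gene-end peak of Cd8a, which encodes the coreceptor of these cells, was open in every group, with means from 317 in young naive to 501 in aged OT-1 Tterm cells. At the gene ends of Cd4 and of the B cell gene Ms4a1, group means were 2.61 to 27.8 and were lowest in naive cells, whereas at the B cell gene Cd79a they were 108.5 in young naive, 76.1 in aged naive and 53.9 to 80.4 in the OT-1 groups. Summed over the 9 B cell genes with a gene-end peak, naive libraries held 741 to 819.5, OT-1 Tprog libraries 525 to 894 and OT-1 Tterm libraries 384 to 529.6. The part of these values in the naive and Tterm differences was not tested. In such bulk samples, fewer cells of a type and less accessibility per cell cannot be told apart.

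Across the members the library medians were 89.3 and 90.6 in young naive cells, 20.1 and 20.04 in young OT-1 Tprog cells and 13.5 to 21.1 in the 7 young OT-1 Tterm libraries. These are the values that chose the members. The median ratio of the young naive mean was 4.29 over Tprog and 5.27 over Tterm, and the second ratio was the larger in 1712 members. In the libraries that took no part in the choice, the medians were 67.2 and 64.1 in aged naive, 51.2 and 31.0 in aged OT-1 Tprog, and 13.9 to 25.3 in aged OT-1 Tterm cells. Aged naive libraries therefore stayed above both aged tumour subsets on this measure, with aged Tprog libraries between, while the medians over all tested peaks lay between 34.2 and 44.5 in the libraries of the table. At the edges of the rule, peaks near Armcx4 and Frmd4b (young naive mean 50.0014) were just inside, whereas one near Slc28a2b (49.9) and one near Hes1 (49.9986) were just outside. Cox10 (2.999-fold over Tprog) and Pex5 (2.996-fold over Tterm) had peaks just under the fold limits, and Fgfr1 (3.006-fold over Tterm) had one just above. The highest values came from 20 members on unplaced or random scaffolds, whose young naive means ran from 51.4 to 500302 with a median of 356. The counts of calls without them are given at the end.

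**Figure D1:**
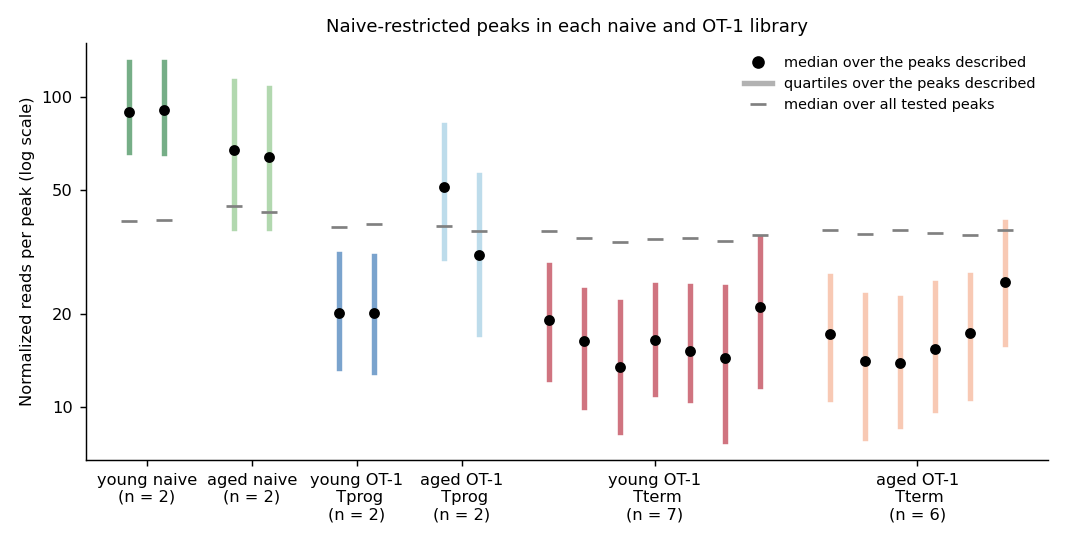
Normalized reads at the 2551 members in each library of the naive and OT-1 table, with the median and quartiles over members per library on a log axis and a grey dash at the median over all tested peaks. Young naive libraries have medians of 89.3 and 90.6, aged naive 67.2 and 64.1, aged OT-1 Tprog 51.2 and 31.0, and every OT-1 Tterm library 25.3 or less.

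The members were mostly away from gene ends. Of them, 53.6% lay inside a gene body and 40.8% between genes, and 4.86% lay within 1000 bp of a gene end. Over the 84091 tested peaks, those with a mean of 10 or more, the shares were 45.6%, 35.7% and 18.5%. Over the other 34053 peaks with a young naive mean of 50 or more they were 37.5%, 28.0% and 34.2%. Median width was 908 bp, against 921 bp in tested peaks and 1384 bp in the other peaks open in young naive cells. Only 39.5% of members overlapped a peak of the endogenous tumour table, against 76.2% of tested peaks and 96.0% of the other peaks open in young naive cells. As the endogenous peaks were called on tumour cells, this share describes both what is open there and what was called.

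A protein-coding gene lay within 100000 bp of 2289 members, giving 1518 genes, of which 1083 had a single member and 44 had 5 or more. Foxp1, a forkhead repressor that holds naive T cells quiescent, and Satb1 had the most, with 12 members each among 79 and 30 tested peaks. Lef1 had 11 of 34 and Wwox, a large gene spanning a fragile site, 11 of 52. They were followed by Nfia, a transcription factor gene, with 9 of 38. Rere, Sgms1 (a sphingomyelin synthase), St6gal1 (a sialyltransferase), Zfp704 and Znrf1 (a ubiquitin ligase) had 7 each. For members between genes, the gene is the nearest body and may not be the one the region serves. The alpha receptor locus on chromosome 14 held 21 members among 167 tested peaks and the beta locus on chromosome 6 held 1 among 41. At the alpha locus the median over members was 91.6 in young naive, 65.1 in aged naive, 45.7 in aged OT-1 Tprog and 18.7 in aged OT-1 Tterm cells. There, naive cells of many rearrangements are set beside OT-1 cells that carry a rearranged transgene.

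Of the 30 genes listed for naive quiescence and homing, 21 had members, 74 in all among their 596 tested peaks. Genes of proximal T cell receptor signalling had 8 members among 384 tested peaks, in 7 of 22 genes, Cd28, Cd5, Fyn, Prkcq, Ptprc and Rasgrp1 among them. Cytokine receptors had 18 among 231, in Ifngr2, Il4ra, Il6ra, Il6st, Tgfbr2 and Tgfbr3. The exhaustion genes had 3 among 225 (Ctla4, Nr4a1 and Tox), the effector genes 2 among 184 (Fasl and Ifng) and the virtual memory genes 2 among 75 (Cd44 and Eomes). For other cells, 4 marker lists had small numbers of members but shares above that of all tested peaks, which was 3.03%. Members were 2 of 45 peaks for B cells (4.44%) (Ebf1 among them), 6 of 67 (8.96%) for myeloid and dendritic cells (Flt3 and Itgam), 6 of 87 (6.90%) for CD4+ and regulatory T cells (Cd40lg and Ikzf2) and 1 of 21 (4.76%) for gamma delta and NKT cells (Sox13). No member lay at an NK, erythroid or melanocyte marker gene, which had 24, 9 and 12 tested peaks.

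Aged naive cells were more accessible than aged OT-1 Tterm cells at most members. Of the 2550 members tested (1 of 2551 fell below the mean of 10), 2001 were called higher in aged naive cells and 9 lower at a limma adjusted p under 0.05, with Benjamini-Hochberg adjustment over all tested peaks. The backgrounds over all tested peaks were 26.3% higher, 21.4% lower and 47.7% either way, against 78.5% and 0.353% of members. The median log2 difference, on the scale of log2(normalized reads + 1), was 2.02 over the members and 0.17 over all tested peaks. In 2086 members every aged naive library was above every aged OT-1 Tterm library (background 33.3%), and in 12 every one was below (background 24.5%). Across other scalings the members' median exceeded that of all tested peaks by 1.66 to 1.87. With aged Tterm library 6 as the only Tterm library, which is the one of batch 6, the median was 1.298 and 193 members were called, all higher. Without aged naive library 1, 1324 members were called. In 1 simulated data set for this comparison, 100 of 84091 peaks were changed 2-fold, 100 were changed 4-fold and the rest were left flat. Of 66 calls 16.7% were false, and 10% of the 2-fold and 45% of the 4-fold changes were called. As 47.7% of tested peaks were called in the data, these rates need not hold there.

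Several members near genes of no fixed list led this comparison by p. The member chr1:66552013-66553284 inside Unc80, which encodes a part of a sodium leak channel complex, read 351 and 361 in aged naive libraries, 147 and 310.2 in aged OT-1 Tprog libraries and 13.97 to 29.3 (median 20.5) in the 6 aged OT-1 Tterm libraries (mm10 coordinates as the tables give them). No aged naive value overlapped the Tterm range, and the log2 difference was 4.06 (SE 0.31, limma adjusted p = 1.03e-09). The young values that chose it were 317 and 326 in young naive, 116 and 82.5 in young OT-1 Tprog and 14.5 to 26.6 (median 20.1) in young OT-1 Tterm libraries. Inside Ect2l, a member at chr10:18192988-18193764 read 307 and 278 in aged naive libraries, 197 and 237 in aged OT-1 Tprog libraries and 29.3 to 49.3 (median 38.02) in the 6 aged OT-1 Tterm libraries. All aged naive values were above all aged OT-1 values, with a log2 difference from Tterm of 2.93 (SE 0.25, limma adjusted p = 4.13e-09). At chr3:103090382-103092655, inside the AMP deaminase gene Ampd1, the values were 359 and 322 in aged naive libraries, 246 and 146 in aged OT-1 Tprog libraries and 26.8 to 65.3 (median 33.6) in the 6 aged OT-1 Tterm libraries. The 3 groups did not overlap, and naive exceeded Tterm by 3.13 (SE 0.30, limma adjusted p = 2.82e-08) on the log2 scale.

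**Figure D2:**
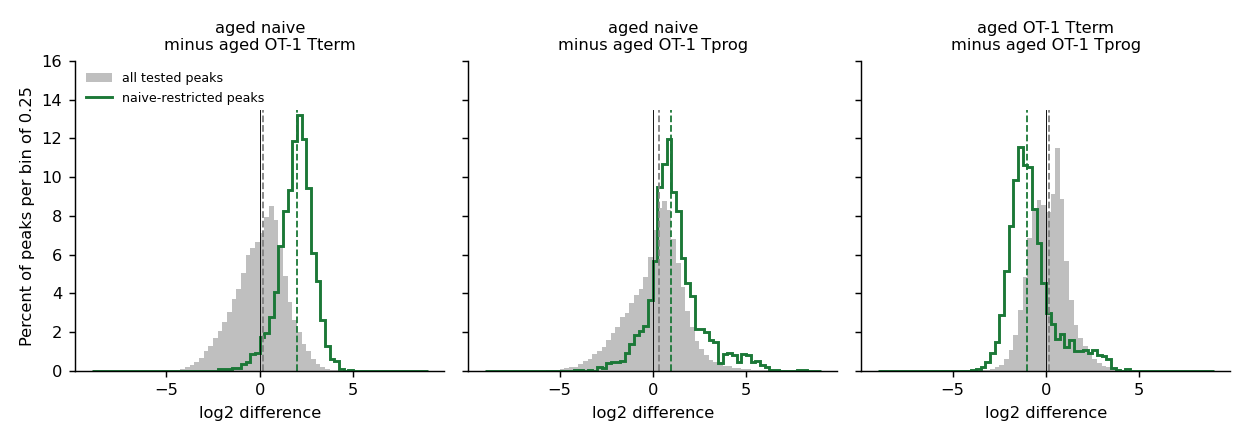
Percent of peaks in bins of 0.25 by log2 difference between aged groups (log2 of normalized reads plus 1), for the 2550 tested members and for all 84091 tested peaks, with dashed lines at the medians. Members have medians of 2.02 for naive against Tterm, 0.96 for naive against Tprog and -1.02 for Tterm against Tprog, and all tested peaks 0.17, 0.36 and 0.15.

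Transcription factor genes of the naive state had members that were higher in aged naive than in aged Tterm cells. Over the list for quiescence and homing, 69 of 74 members were called higher and none lower, beside 78.5% and 0.353% of all members. The median log2 difference was 2.37, beside 2.02 over all members. In Foxp1, the member at chr6:99387945-99389825 read 257 and 271 in aged naive libraries, 194 and 134 in aged OT-1 Tprog libraries and 43.9 to 60.4 (median 49.4) in the 6 aged OT-1 Tterm libraries. The lowest naive value was above the highest value of either tumour subset, and the log2 difference from Tterm was 2.39 (SE 0.25, limma adjusted p = 8.08e-08). The Satb1 member of highest young naive level, chr17:51805227-51807562, read 282 and 248 in aged naive libraries, 239.7 and 102 in aged OT-1 Tprog libraries and 22.3 to 75.8 (median 57.8) in the 6 aged OT-1 Tterm libraries. Both naive values were above the aged OT-1 values, by 2.44 (SE 0.37, limma adjusted p = 1.31e-05) over Tterm. Lef1 encodes a partner of Tcf7, and its member at chr3:131199337-131200524 read 213 and 208 in aged naive libraries, 173 and 42.2 in aged OT-1 Tprog libraries and 18.6 to 42.03 (median 27.6) in the 6 aged OT-1 Tterm libraries. Aged Tprog library 1 lay near the naive values there and library 2 just above the Tterm range, while naive exceeded Tterm by 2.96 (SE 0.37, limma adjusted p = 1.18e-06) on the log2 scale.

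Klf2 encodes the factor that switches on S1pr1. At chr8:72290715-72291647, 27415 bp from its gene body, the values were 121 and 142 in aged naive libraries, 77.97 and 75.8 in aged OT-1 Tprog libraries and 11.5 to 32.2 (median 15.6) in the 6 aged OT-1 Tterm libraries. Tprog lay between the other groups in both libraries, and naive exceeded Tterm by 2.85 (SE 0.41, limma adjusted p = 6.62e-06). Bach2 encodes a repressor of effector genes, and its member at chr4:32387524-32389187 read 212 and 209 in aged naive libraries, 157 and 92.2 in aged OT-1 Tprog libraries and 37.3 to 83.7 (median 47.6) in the 6 aged OT-1 Tterm libraries. Naive and Tterm values did not overlap, with a log2 difference of 2.07 (SE 0.32, limma adjusted p = 2.02e-05), and Tterm library 6 was the highest of its group. Foxo1 encodes the factor that sustains Il7r expression, and its member at chr3:52280184-52281204 had means of 107 in aged naive, 65.2 in aged OT-1 Tprog and 23.7 in aged OT-1 Tterm cells. Tcf7, which encodes TCF-1, had a narrow member at chr11:52309506-52309871 with 55.4 and 52.3 in aged naive libraries, 34.9 and 23.3 in aged OT-1 Tprog libraries and 1.397 to 50.2 (median 8.63) in the 6 aged OT-1 Tterm libraries. It was called higher in naive than in Tterm cells at 2.64 (SE 0.68, limma adjusted p = 0.00315), but Tterm library 6, the only one of batch 6, held the highest Tterm value, and against that library alone the log2 difference was 0.10 (limma adjusted p = 0.95). Against that library alone the calls at the Satb1, Lef1, Bach2 and Foxo1 members were lost as well, as were those given below for S1pr1, Bcl2, Btg1, Il6ra and Eomes, with log2 differences of 1.32 to 2.65 over these 9.

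Homing, survival and cytokine receptor genes had members of the same kind. S1pr1 encodes the receptor that lets T cells leave lymphoid organs, and its member chr3:115800605-115801989, 85550 bp from the gene body, read 248 and 200.02 in aged naive libraries, 189 and 127 in aged OT-1 Tprog libraries and 30.9 to 46.8 (median 39.7) in the 6 aged OT-1 Tterm libraries. All naive values were above all tumour values, with a log2 difference from Tterm of 2.54 (SE 0.34, limma adjusted p = 2.96e-06). Bcl2 encodes a survival protein, and its member at chr1:106606550-106607609 read 266 and 230.1 in aged naive libraries, 147 and 37.05 in aged OT-1 Tprog libraries and 22.5 to 54.6 (median 44.7) in the 6 aged OT-1 Tterm libraries. Both aged naive values were above the young ones (104 and 122), and naive exceeded Tterm by 2.61 (SE 0.44, limma adjusted p = 4.99e-05). For Btg1, a gene that restrains proliferation, the member chr10:96663398-96664768 read 282 and 248 in aged naive libraries, 211 and 94.8 in aged OT-1 Tprog libraries and 65.3 to 98.7 (median 79.6) in the 6 aged OT-1 Tterm libraries, and naive exceeded Tterm by 1.75 (SE 0.26, limma adjusted p = 9.80e-06).

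Among cytokine receptor genes, 14 of 18 members were called higher and none lower, with a median of 1.76, so that their share was near the 78.5% of all members. The Tgfbr3 member chr5:107078454-107080631, near the gene of a TGF-beta coreceptor, read 348 and 328 in aged naive libraries, 268 and 99.1 in aged OT-1 Tprog libraries and 23.8 to 59.7 (median 42.00) in the 6 aged OT-1 Tterm libraries. Naive and Tterm values did not overlap, and the log2 difference was 3.05 (SE 0.36, limma adjusted p = 5.15e-07). At chr3:89863507-89864849, 4475 bp from Il6ra, which encodes the interleukin 6 receptor, the values were 144 and 148 in aged naive libraries, 27.9 and 203 in aged OT-1 Tprog libraries and 18.2 to 26.6 (median 21.8) in the 6 aged OT-1 Tterm libraries. Aged Tprog library 1 lay just above the Tterm range there and library 2 above the naive values, while naive exceeded Tterm by 2.74 (SE 0.47, limma adjusted p = 6.34e-05). Of the members at receptor signalling genes, 7 of 8 were called higher in aged naive than in aged Tterm cells, and 78.5% of all members were.

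Members also lay at genes better known from activated cells. Tox encodes a regulator of exhaustion, and its member at chr4:6969946-6971215 read 163 and 144 in aged naive libraries, 118 and 89.6 in aged OT-1 Tprog libraries and 20.8 to 33.1 (median 24.9) in the 6 aged OT-1 Tterm libraries. Naive values were above all tumour values here, by 2.56 (SE 0.31, limma adjusted p = 5.25e-07) over Tterm. Eomes encodes a factor of memory and exhausted cells, and its member chr9:118387590-118388375, 89811 bp away, read 85.7 and 87.6 in aged naive libraries, 11.6 and 82.7 in aged OT-1 Tprog libraries and 14.6 to 22.9 (median 20.2) in the 6 aged OT-1 Tterm libraries. Naive exceeded Tterm by 2.1995 (SE 0.46, limma adjusted p = 5.30e-04). Members between genes near Ifng and Fasl, which encode effector molecules, had aged naive means of 109 and 109.6 against aged Tterm means of 19.1 and 17.6, and both were called higher in naive cells. Over these lists, 2 of 3 exhaustion, 2 of 2 effector and 2 of 2 virtual memory members were called higher and none lower, counts too small to set beside the 78.5% of all members.

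**Figure D3:**
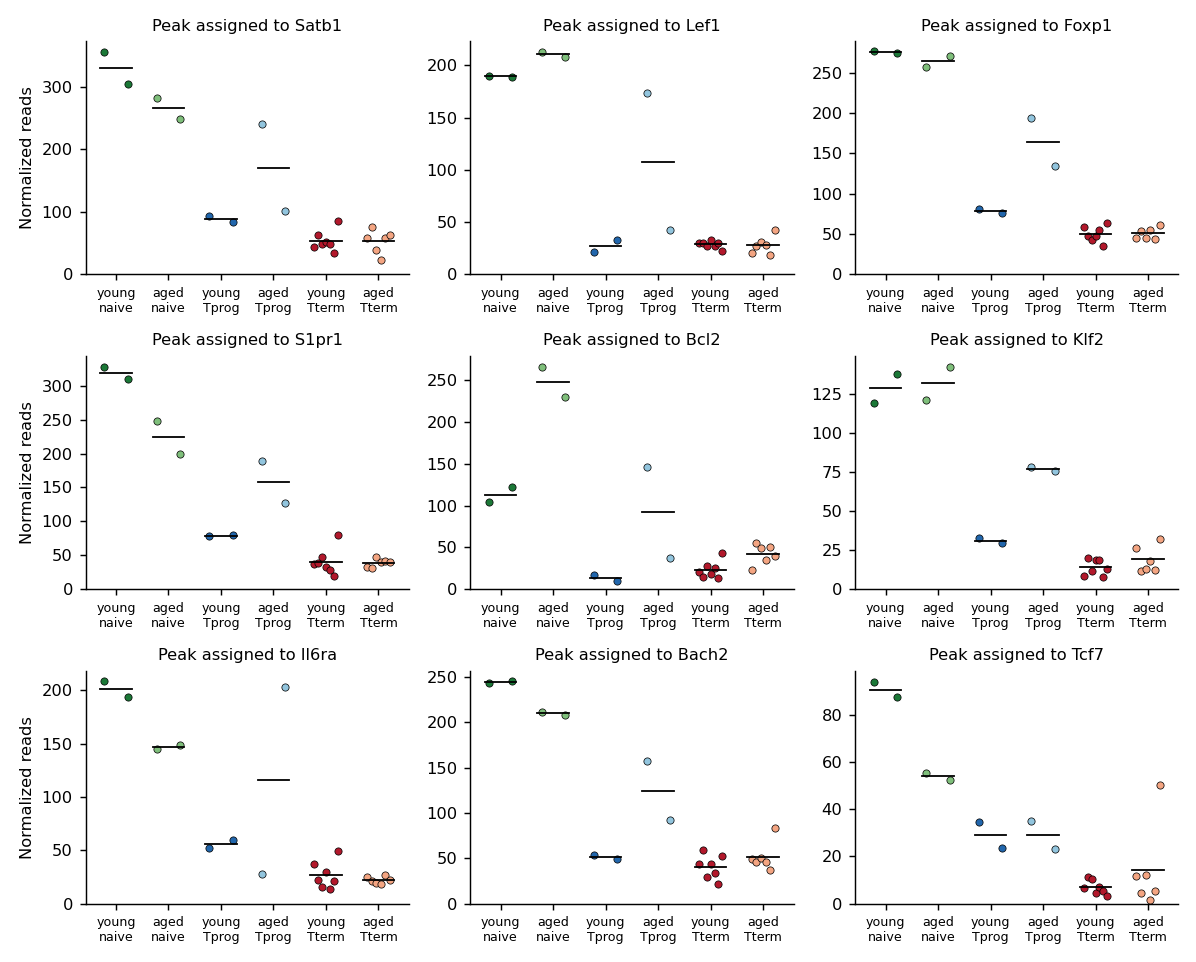
Normalized reads by library at the members described for 9 list genes, on linear axes from 0, with 1 point per library and a line at each group mean. Both aged naive libraries lie above all 6 aged OT-1 Tterm libraries at each of the 9, most narrowly at Tcf7 (52.3 against 50.2).

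Aged naive cells were also above aged OT-1 Tprog cells at many members, by less. Of 2550 members, 500 were called higher in naive cells (19.6%, background 18.1%) and 21 lower (0.824%, background 10%), beside a background of 28.1% for calls in either direction. The share called higher was close to that of all tested peaks. The median log2 difference was 0.96, against 0.36 over all tested peaks, and other scalings moved the second value to between -0.10 and 0.08 and kept the members 0.58 to 0.60 above it, with 285 called higher and 59 lower in edgeR. The groups were separate with naive above in 1294 members (background 37.2%) and with naive below in 156 (background 21.7%). Without the batch term 306 members were called higher and 26 lower, with a median of 0.80 against 0.27 over all tested peaks. This comparison shares the aged naive libraries with the one before. Without aged OT-1 Tprog library 1 the counts were 656 higher and 12 lower with a median of 1.197, and without library 2 they were 479 and 50 with a median of 0.51, where all tested peaks had a median of 0.50 and 38.9% of calls. Without library 2 the members' median was thus near that of all tested peaks. Fitted with only these groups, limma called no member and 0% of all tested peaks, while edgeR and DESeq2 with all groups called 344 and 424 members. Without aged naive library 1 or 2, 254 or 301 members were called.

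Lef1 and Bcl2 were among the list genes called here. At the Lef1 member described above, naive exceeded Tprog by 1.45 (SE 0.55, limma adjusted p = 0.0485), and at the Bcl2 member by 1.87 (SE 0.65, limma adjusted p = 0.0318). With aged Tprog library 2 left out, these differences were 0.44 and 0.90 with limma adjusted p-values of 0.49 and 0.27, and both calls were also lost in edgeR and DESeq2. Inside Dock4, which encodes an activator of small GTPases, the member chr12:40535343-40536995 read 487 and 427 in aged naive libraries, 341 and 135 in aged OT-1 Tprog libraries and 45.9 to 63.6 (median 57.8) in the 6 aged OT-1 Tterm libraries, and naive exceeded Tprog by 1.27 (SE 0.39, limma adjusted p = 0.0177). That call too was lost without aged Tprog library 2, with a difference of 0.61. It was also lost in edgeR (adjusted p = 0.20) and in DESeq2 (adjusted p = 0.097). Equal totals and quantile scaling lost it as well, with limma adjusted p-values of 0.18 and 0.36. The largest differences rested on zeros in aged OT-1 Tprog library 1: at the Echdc1 member chr10:29338404-29339474 the aged Tprog libraries held 0 and 49.97, with 164 and 137 in aged naive libraries. At chr12:3568722-3569011, near Dtnb, both aged Tprog libraries were at 0, with 42.00 and 27.5 in aged naive and 0.881 to 19.99 (median 2.62) in aged Tterm libraries.

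Between the tumour subsets of aged mice, members were more often lower in Tterm than in Tprog cells. Of 2550, 514 were called lower in aged OT-1 Tterm cells (20.2%, background 3.39%) and 102 higher (4.00%, background 11.3%), with a background of 14.7% for both together. The median log2 difference was -1.02 against 0.15 over all tested peaks, and other scalings kept the members 1.04 to 1.21 below that median, with 32 called higher and 861 lower in edgeR. In 978 members every Tterm library was below both Tprog libraries (background 7.78%), and in 10 every one was above (background 10.9%). Over the list for quiescence and homing, 20 of 74 were called lower and 1 higher, with a median of -0.997. Unc80 differed most clearly, by -3.28 (SE 0.38, limma adjusted p = 3.28e-06), followed among the members named above by Ect2l at -2.43 (SE 0.30, limma adjusted p = 7.25e-06). S1pr1 differed by -1.91 (SE 0.41, limma adjusted p = 0.00265) and Tox by -1.96 (SE 0.37, limma adjusted p = 6.94e-04). At these members both Tprog libraries were above all 6 Tterm libraries. Fitted with only these groups, the comparison had 1 call among members (0.241% of all tested peaks), and Unc80, Ect2l, S1pr1 and Tox had limma adjusted p-values of 0.054, 0.064, 0.13 and 0.23.

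The Tprog libraries were all from batch 6 and differed from each other, which bears on these counts. In the fit of only these groups, the batch term made the difference rest on Tterm library 6, the only Tterm library of batch 6. That fit is thus not a check apart from the one within batch 6 below, and both had a median of -0.69. Without aged Tprog library 1, 51 members were higher and 230 lower with a median of -0.69, and without library 2 the counts were 275 and 1058, with 36% of all tested peaks called. Without Tterm library 6 they were 31 and 576. Against the Tterm libraries of batches 4 and 5 alone the counts were 5 higher and 1055 lower, and against Tterm library 6, within batch 6, they were 1 and 11 with a median of -0.69. The S1pr1 and Tox differences within batch 6 were -1.91 and -1.61, with limma adjusted p-values of 0.24 and 0.18. Without a batch term the fit called 4 higher and 863 lower. At the Lef1 and Satb1 members the calls of lower Tterm were lost without aged Tprog library 1, with differences of -0.51 and -0.87 and limma adjusted p-values of 0.61 and 0.37.

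The order naive above Tprog above Tterm held for the aged means in 1830 members (71.7%), against 22.8% of all tested peaks. Tprog was at or above naive and naive above Tterm in 406 members (15.9%, background 6.12%). Naive was above Tterm and Tterm at or above Tprog in 206 (8.08%, background 23.8%). In 109 members the aged naive mean was not above the aged Tterm mean (4.27%, background 47.3%). The aged naive mean was at least 3 times the aged Tterm mean in 1622 members (63.6%, background 8.95%). It was at least 3 times the aged Tprog mean in 206 (8.08%, background 4.49%). Both held in 143 members, or 5.61%, against 1.61% of all tested peaks. Without aged Tprog library 1, both held in 637 members (24.97%), and the full order in 1531 (60.02%), with no background computed.

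Values in naive cells of both ages are given as a description. The young naive values entered the choice, so a lower value in aged naive cells is favoured by it, and nothing is read from these counts. Of 2550 members, 135 were called lower in aged naive cells (5.29%, background 1.16%, or 5.24% in either direction) and none higher (background 4.08%), while 1 was higher in DESeq2, none was in edgeR, and 470 had an unadjusted p under 0.05. The median log2 difference was -0.45, with 0.11 over all tested peaks and 0.25 over the other peaks open in young naive cells. In 1675 members both aged values were below both young ones (background 24.9%), and in 412 both were above (background 40.7%). Without aged naive library 1 or 2 there were 29 or 53 calls, and without young naive library 1 or 2 there were 33 or 32. Summed levels of most lists at gene ends differed with naive age without overlap: the virtual memory genes summed to 2568 and 2733 in the aged and 1314 and 1404 in the young naive libraries, the effector genes to 5986 to 6349 and 3626 to 3790, and the exhaustion genes to 7501 to 8205 and 5215 to 5931. The quiescence and homing genes were higher in aged naive libraries too, at 18565 to 19720.5 against 15545 to 15724. So were the receptor signalling genes (12187 to 12550 against 10197 to 10248) and the cytokine receptor genes (8650 to 8876 against 6682 to 7073). Library medians over the other peaks open in young naive cells rose as well, at 192 and 181 in aged against 145 and 144 in young naive libraries. Of other cell types, the myeloid and dendritic genes summed to 1564 to 1703 in aged and 999 to 1143 in young naive libraries. The NK genes summed to 359 to 365 and 257 to 292, and the melanocyte genes to 559 to 598 and 393 to 400. The members called lower include 1 at Flt3 and 1 at Itgam, both of the myeloid and dendritic list. The gamma delta and NKT genes, 3 in all, summed to 47.7 to 56.3 in aged and 97.8 to 110 in young naive libraries. The B cell genes were lower in aged naive libraries as well, at 740.9 to 742.6 against 768 to 819.5. For the erythroid genes and those of CD4+ and regulatory T cells, the ages overlapped. The part of these values in the lower members was not tested.

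The 135 members called lower in aged naive cells are described by their values alone. Their median was 100.7 in young and 14.9 in aged naive cells, 40.3 in aged OT-1 Tprog (libraries 51.2 and 25.8) and 14.7 in aged OT-1 Tterm cells. Young and aged naive values both picked these 135, so nothing is read from their place beside Tterm and Tprog. Of the 135, 79 lay inside genes, 44 between genes and 12 at gene ends, and they belonged to 106 genes. Ldlrad3 had 4, and Reep1 and Syk had 3 each.

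Dapk1 is an example at a gene start, where the printed window lies inside its member at chr13:60601410-60603013. That member read 191 and 221 in young naive, 11.8 and 13.7 in aged naive, 107 and 37.9 in aged OT-1 Tprog and 0 to 27.9 (median 13.02) in aged OT-1 Tterm libraries, so that both aged naive values lay within the Tterm range. Ccr9 had a gene-end member at chr9:123766740-123767425 with 74.5 and 81.8 in young and 15.96 and 16.3 in aged naive libraries, 32.6 and 37.9 in aged Tprog and 6.63 to 25.1 (median 16.6) in aged Tterm libraries. The Syk member at chr13:52582541-52583663 read 79.7 and 107 in young and 14.3 and 24.8 in aged naive libraries. Sox13 encodes a factor of gamma delta T cells, and its gene-end member chr1:133423215-133424344 read 96.4 and 72.2 in young and 8.400 and 7.19 in aged naive libraries, below the aged Tprog libraries (45.4 and 30.2) and at the foot of the aged Tterm range. In Dgkg, the gene of a diacylglycerol kinase, the member chr16:22526136-22526967 read 184 and 181 in young naive, 21.8 and 15.7 in aged naive, 69.8 and 71.5 in aged Tprog and 4.08 to 9.28 (median 6.76) in aged Tterm libraries. The Flt3 member chr5:147340615-147341658, in the gene of a receptor of early blood progenitors, read 251 and 236 in young and 44.5 and 49.02 in aged naive libraries. By contrast, the start windows of Satb1, Cnr2, P2rx7 and Rgs3 lay in members with aged naive means of 167, 117, 47.9 and 98.6, beside young naive means of 161, 112, 52.2 and 73.8. The calls of lower aged naive values at Dapk1, Ccr9, Syk and Flt3 were each lost when any single naive library was left out. At a pseudocount of 0.5 those at Dapk1, Syk and Flt3 were lost, and with no filter those at Syk and Flt3. Equal totals and a replicate block also lost the call at Syk.

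**Figure D4:**
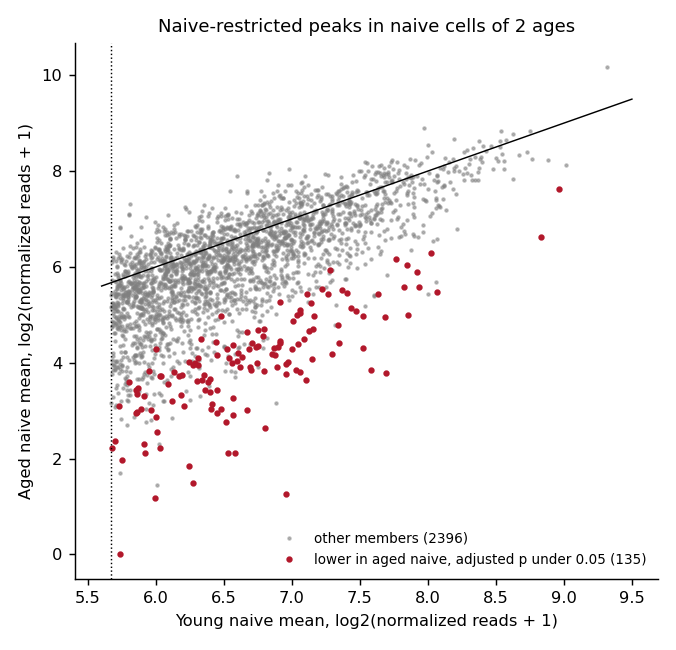
Mean normalized reads in aged against young naive libraries for members on chromosomes, both axes on a log scale, with 2396 members in grey, the 135 called lower in aged naive cells in colour and a line at equality. The 135 have a median of 100.7 in young and 14.9 in aged naive cells.

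Age comparisons within the OT-1 subsets use young values that were chosen to be low, so they too are descriptions and nothing is read from their counts. For Tterm, 1 of 2550 members was called higher in aged cells (background 0.178%) and none lower (background 0.088%), with 138 at an unadjusted p under 0.05, 2 calls in edgeR and 10 in DESeq2. The background of calls either way was 0.266%. In 4 members every aged library was above every young one (background 0.331%), and in none below (background 0.155%). The median log2 difference was 0.08, and -0.04 without aged Tterm library 6. For Tprog, 1 member was called higher (background 0.0226%) and 4 lower (background 0.0725%, or 0.0951% either way), while the median was 0.70 against -0.21 over all tested peaks. Several other fits called more members higher than lower: 15 and 4 at equal totals, 31 and 5 with quantile scaling, 13 and 4 in edgeR, 54 and 11 in DESeq2, 11 and 0 with no batch term and 7 and 0 with a replicate block. In the same order, these fits called 0.497%, 0.807%, 0.259%, 1.07%, 0.172% and 0.107% of all tested peaks either way. In 1186 members both aged Tprog values were above both young ones (background 10.7%), and in 39 below (background 15.9%). Without aged Tprog library 2 there were 559 calls (312 higher and 247 lower), near the 21.1% of all tested peaks called there. Without library 1 there were 18, and without young Tprog library 2 none. Both aged libraries are of batch 6 and both young ones of batches 4 and 5, so that age rests on the batch term. Snx29, a sorting nexin gene, held the higher member at chr16:11525997-11527211, with 47.7 and 77.5 in aged and 13.4 and 11.8 in young Tprog libraries. The lower ones lay near Dtnb, Synpo2, Tasp1 and Aebp2. Aebp2 encodes a cofactor of the Polycomb complex PRC2, and its gene-end member chr6:140678378-140679268 held 45.4 and 19.8 in aged and 53.5 and 62.5 in young Tprog libraries.

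Endogenous tumour cells gave a comparison of the tumour subsets in libraries and a table that the choice did not use. That table holds no naive library, so restriction to naive cells could not be looked at there. It covers only the 39.5% of members that overlapped a peak called on tumour cells. A site open in any tumour subset may enter that way, which may favour differences between the subsets. There, 1039 peaks overlapped a member and 1035 of them had a mean of 10 or more. Values of this table are scaled apart from those above, and levels are compared only within it. Group medians over these peaks were 54.7 in young Tprog, 33.0 in young Tterm, 56.0 in aged Tprog, 33.4 in aged Tterm and 47.8 in aged Tadys cells. Library medians were 52.0 to 57.4 and 50.0 to 60.6 for young and aged Tprog and 29.4 to 37.5 and 32.4 to 35.6 for young and aged Tterm, so the Tprog and Tterm libraries did not overlap at either age.

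**Figure D5:**
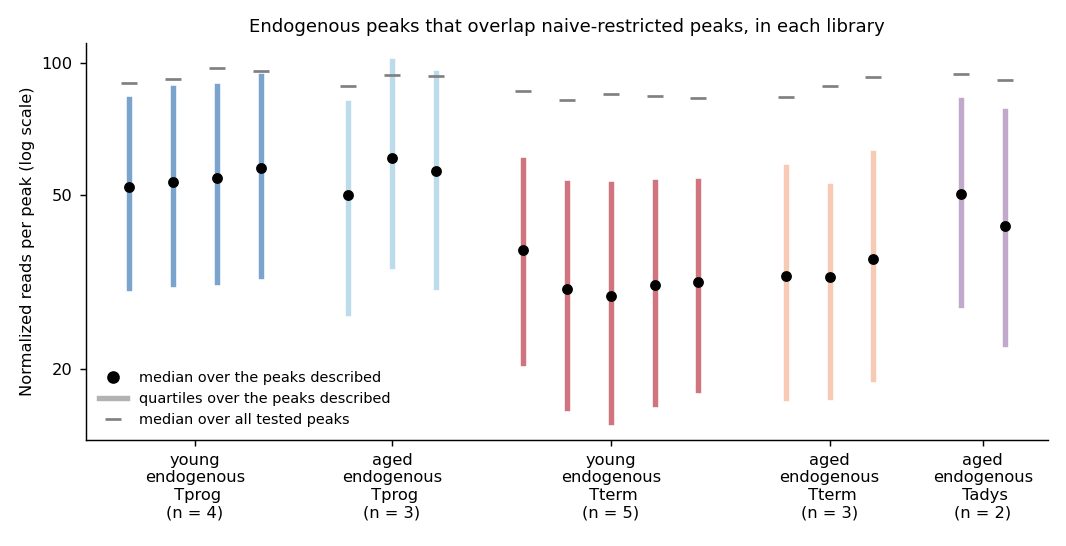
Normalized reads at the endogenous peaks that overlap members, per library of the endogenous table, with median and quartiles on a log axis and a grey dash at the median over all tested peaks. Tprog libraries have medians of 50.0 to 60.6, Tterm libraries 29.4 to 37.5 and the Tadys libraries 42.5 and 50.1.

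In young mice, 346 of 1035 of these peaks were called lower in Tterm than in Tprog cells (33.4%, background 11.3%) and 6 higher (0.580%, background 14.3%, with 25.6% either way). In aged mice the counts were 215 lower (20.8%, background 5.37%) and 7 higher (0.676%, background 6.75%, with 12.1% either way), and 145 peaks were called there without aged Tprog library 2. The median log2 differences were -0.67 and -0.62, against -0.01 and 0.01 over all tested peaks. Every Tterm library was below every Tprog library in 336 peaks in young mice (background 10.5%) and in 397 in aged mice (background 14.1%). Of the 1004 members with a tested endogenous peak, 295 were called lower in aged OT-1 Tterm cells and 344 in young endogenous Tterm cells, and 187 in both, which is 63.4% of the first and 54.4% of the second list, where the lists hold 29.4% and 34.3% of the 1004. Young and aged endogenous calls, which share no library, had 151 members in common, 43.9% of 344 and 70.6% of 214, where the 214 are 21.3% of the 1004.

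Unc80 again differed strongly. Its endogenous peak chr1:66552308-66553134 read 142, 121, 123 and 94.9 in young Tprog libraries, 30.00, 7.46, 16.8, 14.4 and 4.18 in young Tterm, 115, 201 and 208 in aged Tprog, 18.1, 15.2 and 18.2 in aged Tterm and 42.1 and 37.98 in aged Tadys libraries. No Tterm value reached a Tprog value at either age, and Tterm was lower by a log2 difference of -3.21 (SE 0.39, limma adjusted p = 4.64e-07) in young and -3.23 (SE 0.47, limma adjusted p = 2.65e-05) in aged mice. A peak with no gene within 100000 bp, chr3:38280167-38280713, read 182, 183, 217 and 158 in young Tprog libraries, 20.6, 12.99, 15.98, 20.5 and 22.7 in young Tterm, 184, 210.04 and 137 in aged Tprog, 13.8, 20.7 and 10.8 in aged Tterm and 62.1 and 120.02 in aged Tadys libraries. The differences there were -3.27 (SE 0.29, limma adjusted p = 2.94e-09) and -3.49 (SE 0.35, limma adjusted p = 1.65e-07), and Tadys cells were above Tterm cells by 2.49 (SE 0.40, limma adjusted p = 7.01e-04).

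List genes differed in the same direction where they were called. For quiescence and homing, 31 endogenous peaks were tested, of which 17 were lower in young and 13 in aged Tterm cells and none higher, with medians of -1.10 and -1.14. Over all 1035 overlapping peaks the shares called lower were 33.4% and 20.8%, and over all tested peaks 11.3% and 5.37%. The S1pr1 peak chr3:115800593-115801628 read 102, 120.5, 112 and 135 in young Tprog libraries, 43.1, 37.8, 44.6, 62.2 and 34.6 in young Tterm, 138, 189 and 178 in aged Tprog, 42.2, 55.9 and 57.99 in aged Tterm and 82.2 and 95.7 in aged Tadys libraries. Tprog and Tterm values were separate at both ages, with differences of -1.402 (SE 0.24, limma adjusted p = 5.29e-05) and -1.68 (SE 0.29, limma adjusted p = 1.86e-04). Near Il6ra, chr3:89864069-89864413 read 54.4, 81.8, 54.6 and 43.05 in young Tprog libraries, 16.9, 3.61, 2.52, 12.1 and 19.1 in young Tterm, 61.5, 116 and 80.6 in aged Tprog, 9.47, 13.8 and 12.4 in aged Tterm and 26.05 and 44.1 in aged Tadys libraries. It differed by -2.61 (SE 0.47, limma adjusted p = 1.21e-04) in young and -2.72 (SE 0.57, limma adjusted p = 0.00159) in aged mice, again with no overlap. In Foxp1, chr6:99387966-99389417 differed by -1.199 (SE 0.26, limma adjusted p = 9.16e-04) and -1.67 (SE 0.32, limma adjusted p = 5.51e-04).

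Tox showed it too. At the Tox peak chr4:6970135-6970998 the values were 179.6, 118, 101 and 85.3 in young Tprog libraries, 71.3, 16.1, 29.4, 24.3 and 13.1 in young Tterm, 165, 166 and 139.6 in aged Tprog, 24.1, 26.2 and 26.5 in aged Tterm and 34.1 and 138 in aged Tadys libraries. Tterm was lower by -2.14 (SE 0.39, limma adjusted p = 1.47e-04) in young and -2.56 (SE 0.48, limma adjusted p = 4.46e-04) in aged mice, young Tterm library 1 was the highest of its group, and the 2 Tadys libraries lay far apart. For Satb1, chr17:51806306-51807476 was lower in young Tterm cells by -1.78 (SE 0.41, limma adjusted p = 0.00158) and read 49.96, 59.9 and 65.6 in aged Tprog and 29.3, 37.3 and 45.6 in aged Tterm libraries, where the difference was -0.65 (SE 0.50, limma adjusted p = 0.476). Whether the Satb1 difference itself differs between ages was not tested.

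By group median, the Tadys fraction of aged mice (47.8) lay between aged Tprog (56.0) and aged Tterm (33.4) at these peaks. Tadys libraries 1 and 2, at 50.1 and 42.5, were above the aged Tterm libraries (32.4 to 35.6). Library 1, however, lay within the range of the aged Tprog libraries (50.0 to 60.6). Against Tprog, 49 of 1035 were called lower in Tadys cells (4.73%, background 4.04%) and 5 higher (0.483%, background 2.61%, with 6.65% either way), with a median log2 difference of -0.21. The share called lower was close to the background. Against Tterm, 62 were called higher (5.99%, background 2.06%) and 8 lower (0.773%, background 4.23%, with 6.3% either way), with a median of 0.43. Both comparisons share the 2 Tadys libraries, and calls depended on single libraries. The first had 24 without Tadys library 1, 89 without Tadys library 2, and 16 or 24 without aged Tprog library 2 or 3. The second had 30 without Tadys library 1 and 32 or 38 without aged Tterm library 1 or 3. Grik4 encodes a kainate receptor subunit, and its peak chr9:42859884-42860780 was high in Tadys cells, with 75.6, 63.4, 90.3 and 93.3 in young Tprog libraries, 30.00, 41.6, 24.4, 28.8 and 29.8 in young Tterm, 49.96, 30.97 and 77.3 in aged Tprog, 42.2, 51.8 and 53.8 in aged Tterm and 150.3 and 147 in aged Tadys libraries. Both Tadys values were above all others, by 1.57 (SE 0.39, limma adjusted p = 0.0164) over Tprog and 1.58 (SE 0.39, limma adjusted p = 0.0159) over Tterm. Without Tadys library 1 both calls were lost (limma adjusted p of 0.095 and 0.081), as was the first without aged Tprog library 2 (0.085) and the second without aged Tterm library 1 (0.059).

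With age, few of these peaks were called in the endogenous subsets. For Tprog, 1 of 1035 was called higher in aged cells (background 0.0822%) and none lower (background 0.0836%, with 0.166% either way), with 138 at an unadjusted p under 0.05, 2 calls in edgeR and 14 in DESeq2. It lay at the gene end of Spata31d1b, chr13:59718757-59719646, with 181, 109 and 164 in aged and 54.4, 50.6, 58.6 and 37.5 in young Tprog libraries. That call was lost without aged Tprog library 1 or 3 or any single young Tprog library (limma adjusted p of 0.071 to 0.145). For Tterm, limma called none (background 0.00697% higher and 0.00139% lower), with 50 at an unadjusted p under 0.05, 2 calls in edgeR and 3 in DESeq2. The medians of the log2 differences were 0.00 and 0.07. At the Dgkg peak chr16:22526276-22526734, whose member was lower in aged naive cells, young Tprog libraries held 40.2, 60.7, 79.2 and 54.2 and aged ones 7.69, 35.01 and 18.3, which did not overlap, and the difference was -1.67 (SE 0.67, limma adjusted p = 0.289).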

How the data were processed

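The authors deposited signal values, reads per peak divided by a size factor for each library, as 2 tables normalized separately (21 naive and OT-1 libraries, 17 endogenous libraries). Per the submitters' processing notes, the build was mm10 and the tools were DESeq2 1.28.1, MACS2 2.1.1, Bowtie2 2.2.9, SAMtools 1.3.1 and Picard 2.8.0. The notes give no roles for the tools, and how peaks were merged is not stated. Undoing the size factors recovered whole reads (within 0.01) for 100% of values, which gave the depth and the input of the count tests.

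The members and gene lists were chosen with earlier results of these data known. The fit was limma 3.58.1 (R 4.3.3) on log2 of normalized reads plus 1, with a variance trend, all groups of a table in 1 model and a term for batch 6 in the first table. Peaks with a mean of 10 or more were tested, and adjusted p-values are Benjamini-Hochberg over all of them. The fit was tested on 1 simulated data set for each of 6 comparisons, with 100 peaks changed 2-fold and 100 changed 4-fold. All other simulated peaks were flat, so the rates need not hold for comparisons with many more calls. In the first table it called 1% (aged against young naive) to 10% (aged naive against aged Tterm) of 2-fold changes. Of 4-fold changes it called 30% to 45% there. In the endogenous table it called 27% to 42% and 67% to 79%. False calls were 16.7% of calls for aged naive against aged Tterm, 11.1% for aged Tterm against aged Tprog and 2.42% to 5.41% for the others. Replicate numbers did not pair the endogenous libraries, with same-number correlations of -0.27 to 0.06.

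Each peak went to the nearest protein-coding RefSeq gene body within 100000 bp, since gene starts came without strand. An endogenous peak was taken for a member if they overlapped by at least 1 base. The named members were the 10 of lowest p in aged naive against aged OT-1 Tterm cells with separate libraries, the highest member of each list gene, the largest called differences of other comparisons, the 8 genes with most members (10 with ties) and members near the limits. The text uses a part of these, and Ccr9, Syk, the printed windows and the Dgkg and Satb1 endogenous peaks were chosen after their values were seen. Alternatives were edgeR 4.0.16, DESeq2 1.42.0, other scalings, pseudocounts, filters and batches, a replicate block, and each library left out.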

Additional observations from a re-analysis of the deposited data

Results flagged for a closer look

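A single library stood far from the others of its group in 7 of 84 groups of values looked at, and chance alone gives about 5% of groups. The median over members was 25.3 in aged OT-1 Tterm library 6, with the next library at 17.3. The same library read 83.7 at the Bach2 member chr4:32387524-32389187, where the next was 50.2, and 50.2 at the Tcf7 member chr11:52309506-52309871, where the next was 12.1. Among young endogenous Tterm cells, library 1 had a median of 37.5 over the peaks that overlap members, with the next at 31.6. That library also read 71.3 at the Tox peak chr4:6970135-6970998, with the next at 29.4, and 60.001 at the Spata31d1b peak chr13:59718757-59719646, with the next at 32.6. Young OT-1 Tterm library 7 read 109 at the Echdc1 member chr10:29338404-29339474, with the next at 37.7.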

How the results depend on the processing

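No named difference changed sign. The balance of calls turned from lower to higher for OT-1 Tprog by age at a mean of 30 or more, equal totals, quantile scaling, edgeR, DESeq2, no batch term, a replicate block and without young Tprog library 1. The median turned to -0.04 for OT-1 Tterm by age with batches 4 and 5 alone, and for endogenous Tprog by age, where it was 0.00, to between -0.08 and -0.01 under 7 alternatives. Among 76 named differences under their alternatives, 1255 values kept their side of the threshold, 140 lost their call, 55 of them without a library, and 1 gained it. Members called numbered as follows. Aged naive against aged Tterm had 2010, with 1261 at a mean of 30 or more, 193 with batch 6 alone and 1324 to 2042 without single libraries. Aged naive against aged Tprog had 521, with 340 at a mean of 30, 304 at equal totals, 344 in edgeR, 332 with no batch term, 0 with only these groups and 254 to 668 without single libraries. Aged Tterm against aged Tprog had 616, with 976 in DESeq2, 1060 with batches 4 and 5 alone, 12 with batch 6 alone, 1 with only these groups and 281 without aged Tprog library 1 to 1333 without library 2. Aged against young naive had 135, with 264 at a pseudocount of 5, 59 at a mean of 30, 204 with quantile scaling, 247 in edgeR, 340 in DESeq2, 1317 with only these groups and 29 to 53 without single libraries. Aged against young OT-1 Tterm had 1, with 2 at equal totals, quantile scaling and in edgeR, 10 in DESeq2, 5 with batches 4 and 5, 0 with batch 6 and 1 to 3 without single libraries. Aged against young OT-1 Tprog had 5, with 19 at equal totals, 36 with quantile scaling, 17 in edgeR, 65 in DESeq2, 11 with no batch term, 0 with only these groups and 0 to 559 without single libraries. Endogenous Tterm against Tprog had 352 in young (292 to 355 without single libraries) and 222 in aged mice (145 to 226). Tadys against Tprog had 54, with 25 in edgeR, 4 with only these groups and 16 to 89 without single libraries. Tadys against Tterm had 70, with 114 in DESeq2, 6 with only these groups and 30 to 86 without single libraries. Endogenous Tprog by age had 1, with 2 at a pseudocount of 5 and in edgeR, 0 at equal totals, 3 with quantile scaling, 14 in DESeq2, 5 with only these groups and 0 to 2 without single libraries. Endogenous Tterm by age had 0, with 2 in edgeR, 3 in DESeq2 and 0 to 1 without single libraries. A mean of 30 left fewer peaks, and fits of only the groups compared left fewer libraries. Why the counts moved was not tested under any setting. The share of all tested peaks called moved too. For aged against young naive it was 31.7% with only these groups, 5.83% at a pseudocount of 5 and 8.97% at a mean of 30. It was 5.97% with quantile scaling, 5.78% in edgeR and 7.7% in DESeq2.

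A replicate block, which in the first table took the place of the batch term, gave 3 calls for OT-1 Tterm by age, 39 for Tadys against Tterm and 0 for endogenous Tprog by age. It moved no other count by over 1.5 times (1820, 374 and 530 calls in the aged comparisons, 301 and 203 for endogenous Tterm against Tprog). The numbers did not pair the libraries: 0 of 7 correlated best with their own number. The rule itself gave 1071 members at a naive mean of 100 or more, 5619 at a fold of 2, 1292 at a fold of 4 and 2500 to 2674 without single libraries. Without the members on scaffolds, an alternative added after seeing the data, the first 3 comparisons had 1991, 519 and 613 calls. Aged OT-1 Tprog library 1 was the shallowest of its table, at 6.80 megareads, and the part of depth in its zeros was not tested.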
